A study of Rattus norvegicus with 10 samples.

Results

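The transcripts described here are those of 9 genes for ion channels that set the firing and the transmitter release of neurons: the calcium channel pore genes Cacna1a, Cacna1b, Cacna1c, Cacna1d and Cacna1g, the auxiliary calcium channel genes Cacna2d1 and Cacnb4, and the pacemaker channel genes Hcn2 and Hcn3. They are 9 of the 14217 genes named on the array and were represented by 17 of its 31042 probe sets, namely every probe set whose platform annotation names 1 of these genes and no other. The values come from the nucleus tractus solitarii (NTS) of 2 rat strains, the spontaneously hypertensive rat (SHR), inbred for its high blood pressure, and the Wistar-Kyoto rat (WKY), its usual normotensive control. Each strain had 5 Affymetrix Rat 230 2.0 arrays of males aged 10 to 13 weeks, so the strains differ over their whole genomes and not at a single allele. The labels call an array an independent replicate and also speak of 5 animals for a sample, so an array may hold a pool, and the p-values speak only of the spread among the arrays.

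Voltage-gated calcium channels open when a neuron is depolarised. A pore-forming alpha1 subunit conducts calcium, and the beta and alpha2delta subunits bring it to the membrane and tune its gating. P/Q-type and N-type channels trigger transmitter release at nerve terminals, L-type channels couple activity to gene expression, and T-type channels open near the resting potential and promote bursts. HCN channels open on hyperpolarisation, are tuned by cAMP, and carry a current that pulls the membrane back toward threshold. The NTS receives the baroreceptor afferents. The cell bodies of these afferents lie in ganglia outside the brainstem, so RNA of their terminals is largely not sampled by an NTS dissection, and signals here come from cells of the nucleus and tissue taken with it. In bulk tissue, fewer cells of a type and less RNA per cell cannot be told apart.

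None of the members was shown to differ between SHR and WKY. Of the 17 probe sets, 9 probe sets of 7 genes were bright enough to be tested (at or above the 40th percentile of the array on at least 5 of the 10 arrays), and 0 of the 9 passed, against 4.26% of all 18846 probe sets tested (limma, Benjamini-Hochberg adjusted p below 0.05). At an unadjusted p below 0.05 there was 1 of 9, a probe set of Cacna1a, where 21.0% of all probe sets tested reached that level. The SHR and WKY values overlapped for all 9, whereas 6.13% of all probe sets tested had no overlap, 3.22% with SHR above and 2.91% with SHR below. Of the 9 log2 differences (SHR minus WKY, on log2(signal + 16)), 5 were above 0 and 4 below, from -0.23 to 0.42 with a median of 0.11. The median over all probe sets tested was 0.016. A p that misses the threshold does not show that the strains are alike, so the interval of each difference is given below.

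**Figure D1:**
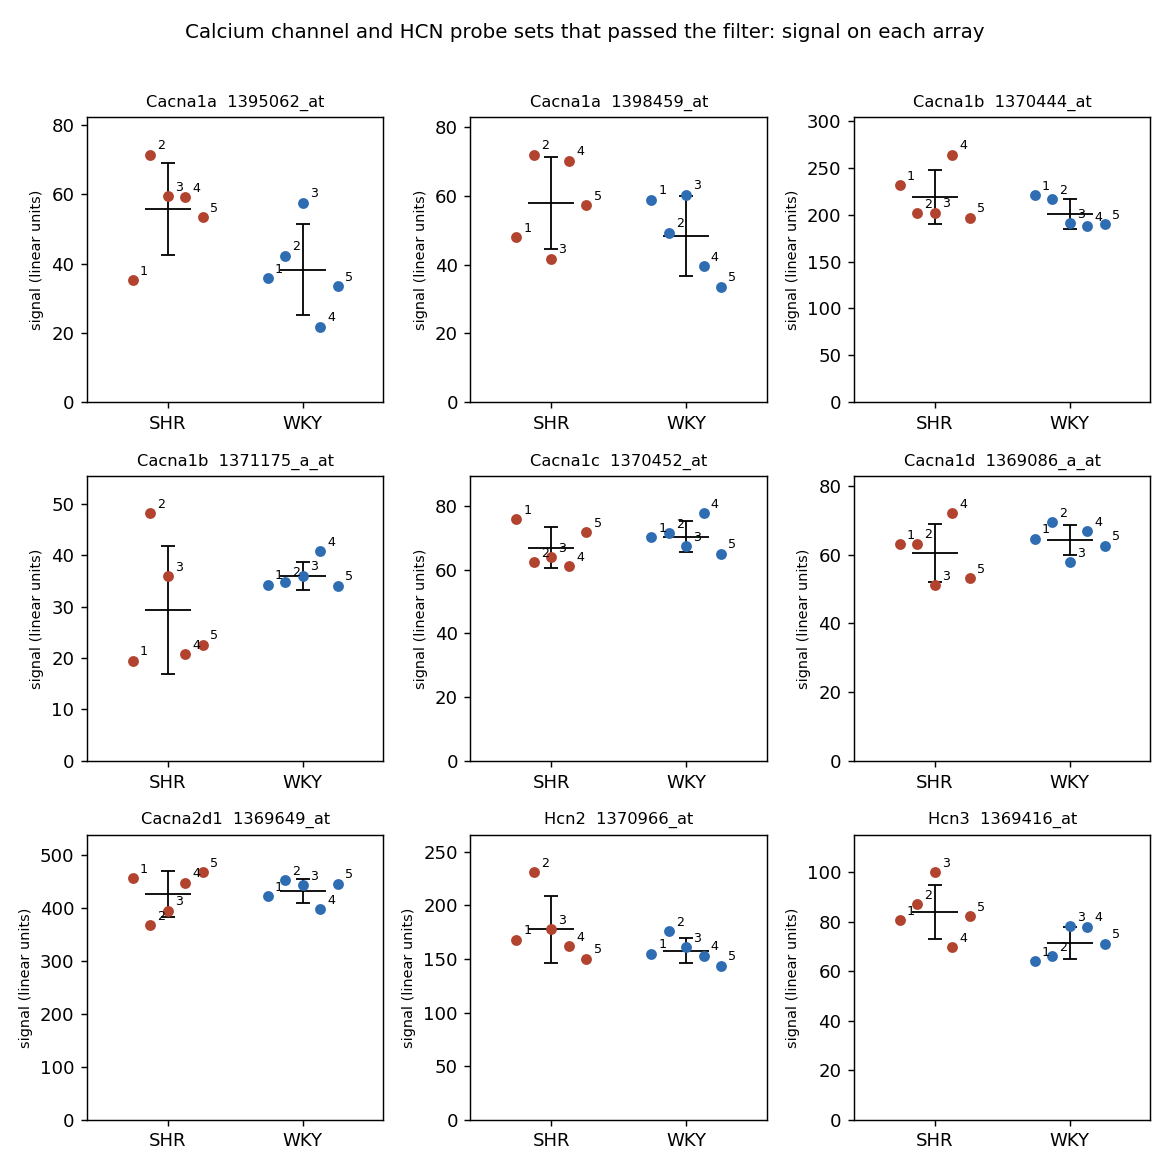
Linear signal on each of the 10 arrays for the 9 tested probe sets, with SHR in red and WKY in blue; numbers beside points are array numbers, the long bar is the mean and the whiskers are 1 SD (n = 5). The strains overlap in every panel, and array SHR 2 is the highest of all 10 in 4 panels.

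Cacna1a encodes the pore of P/Q-type channels, the main calcium source for fast release at many central synapses. It had 5 probe sets, of which 2 were tested. Probe set 1395062_at had signals of 35.2, 71.5, 59.5, 59.1 and 53.5 on SHR 1 to SHR 5, and 35.8, 42.3, 57.6, 21.8 and 33.5 on WKY 1 to WKY 5. SHR 2, SHR 3 and SHR 4 lay above all WKY arrays, SHR 5 lay above all but WKY 3, and SHR 1 lay within the WKY range. The means were 55.8 ± 13.2 in SHR and 38.2 ± 13.1 in WKY (SD, n = 5), a log2 difference of 0.42 ± 0.17 (SE; 95% interval 0.058 to 0.78), with an unadjusted p of 0.0256 and an adjusted p of 0.169 in limma. The second tested probe set, 1398459_at, had 57.9 ± 13.4 and 48.4 ± 11.7, a log2 difference of 0.20 ± 0.15 (95% interval -0.11 to 0.51; limma adjusted p = 0.468). Its sign turned to -0.024 when the median signal of each array was added as a covariate, which lowered the difference of 1395062_at to 0.045 ± 0.19. The strain differences of these probe sets did not differ from each other beyond their error (-0.22 ± 0.16; adjusted p = 0.487 among 3287 pairs of probe sets of a gene, of which 3.92% passed).

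Cacna1b encodes the N-type pore, the presynaptic channel that opioid and adrenergic receptors inhibit. Its probe set 1370444_at averaged 219 ± 28.6 on the SHR and 201 ± 16.02 on the WKY arrays, and the log2 difference was 0.11 ± 0.084 (95% interval -0.069 to 0.29; limma adjusted p = 0.483). The other probe set, 1371175_a_at, went the opposite way in most arrays. It had 19.5, 48.1, 35.9, 20.7 and 22.6 on SHR 1 to SHR 5 against 34.2, 34.8, 36.0, 40.7 and 34.1 on WKY 1 to WKY 5. Thus 3 SHR arrays lay below every WKY array, SHR 2 lay above all of them, and the WKY arrays lay close together. The difference was -0.23 ± 0.16 (limma adjusted p = 0.429). Without SHR 2 it was -0.37 ± 0.15 (adjusted p = 0.198), and without both SHR 2 and SHR 3, the arrays of highest median signal, it was -0.49 ± 0.14 (adjusted p = 0.0691). SHR 2 and SHR 3 also had the highest SHR signals of this probe set, so leaving them out could only make the difference more negative. This probe set entered the test through the 5 WKY arrays and 1 SHR array, so it was counted mainly through its WKY signals. The strain differences of the Cacna1b probe sets stood 0.34 ± 0.20 apart, which did not pass either (adjusted p = 0.372 among the same pairs).

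The L-type pores Cacna1c and Cacna1d each had 1 tested probe set, and both differences were small. Cacna1c, the widespread L-type pore of heart, vessels and brain, had 66.9 ± 6.47 in SHR and 70.3 ± 4.81 in WKY on 1370452_at (log2 difference -0.060 ± 0.093; 95% interval -0.26 to 0.14; limma adjusted p = 0.758). Cacna1d, the L-type pore that opens at lower voltages, had 60.6 ± 8.49 and 64.3 ± 4.40 on 1369086_a_at (-0.074 ± 0.10; 95% interval -0.29 to 0.14; limma adjusted p = 0.720). These intervals reach down to folds of 0.838 and 0.818 and up to 1.10 and 1.10 (SHR over WKY), so changes larger than these on the scale used lie outside them. The difference of Cacna1c was 0.00062 with the median-signal covariate.

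Cacna2d1 encodes the alpha2delta-1 subunit, the binding site of gabapentin. It had the narrowest interval of the 9: the signal was 427 ± 43.1 for SHR and 432 ± 22.4 for WKY, and the log2 difference -0.021 ± 0.071 (95% interval -0.17 to 0.13, or 0.888- to 1.09-fold; limma adjusted p = 0.900). The sign has no meaning at this size and turned with quantile normalization (0.039) and without SHR 2 (0.029) or SHR 3 (0.0044). SHR 2 (368) and SHR 3 (395) were the lowest of the 10 arrays, below the lowest WKY array (397), and SHR 5 (468) was the highest.

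**Figure D2:**
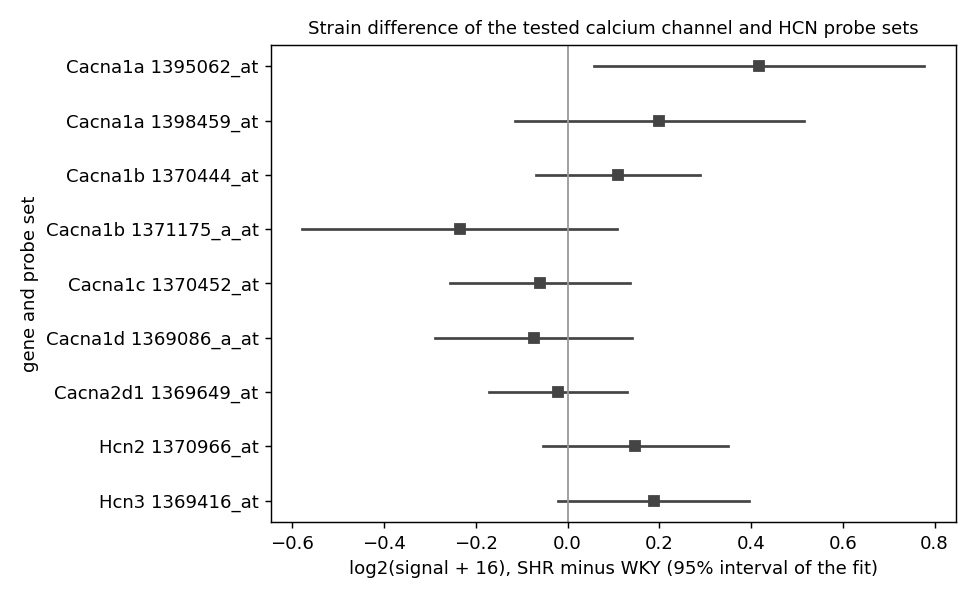
Log2 difference of SHR minus WKY for the 9 tested probe sets (squares) with the 95% interval of the limma fit (lines). The interval of Cacna1a 1395062_at, 0.058 to 0.78, is the 1 that leaves out 0, before any adjustment for the 18846 tests.

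The pacemaker genes Hcn2 and Hcn3 had means that were higher in SHR, without passing the test. Hcn2, the HCN subunit that responds strongly to cAMP, had signals of 168, 231, 178, 162 and 150.4 on SHR 1 to SHR 5 and 155, 176, 161, 153 and 144 on WKY 1 to WKY 5. A single array, SHR 2, stood well above the other 9, which overlapped. The log2 difference was 0.15 ± 0.096 (95% interval -0.055 to 0.35; limma adjusted p = 0.397). Without SHR 2 it was 0.057 ± 0.079 (adjusted p = 0.753), and with the median-signal covariate it was -0.036.

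Hcn3, a subunit with little response to cAMP, had 80.6, 87.0, 100.1, 69.7 and 82.2 on SHR 1 to SHR 5 and 63.97, 66.2, 78.1, 78.0 and 71.1 on WKY 1 to WKY 5. Apart from SHR 4, every SHR array lay above every WKY array. The means were 83.9 ± 11.03 and 71.5 ± 6.53, a log2 difference of 0.19 ± 0.099 (95% interval -0.020 to 0.40; limma unadjusted p = 0.0737, adjusted p = 0.289). Leaving out SHR 4, the lowest SHR array, could only remove this overlap and raise the difference, which was then 0.24 ± 0.099 (adjusted p = 0.183). The sign was positive in each of the 22 alternative fits, from 0.097 to 0.24, and the lowest adjusted p among them was that without SHR 4.

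How bright an array was overall moved with some of these values. The authors scaled each array to the same trimmed mean, yet the array medians were 44.2 to 49.8 among SHR and 39.6 to 45.7 among WKY. Over the 10 arrays, the log2 signal correlated with the log2 array median at r = 0.81 for Cacna1a 1395062_at, 0.72 for Hcn2 and 0.53 for Hcn3. After each strain was centred on its own mean, r was 0.69, 0.64 and 0.18. These values describe 10 points that share the array's labelling and scaling. The part of signal level in the strain differences was not tested beyond the fits with the covariate, which overlaps with strain.

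**Figure D3:**
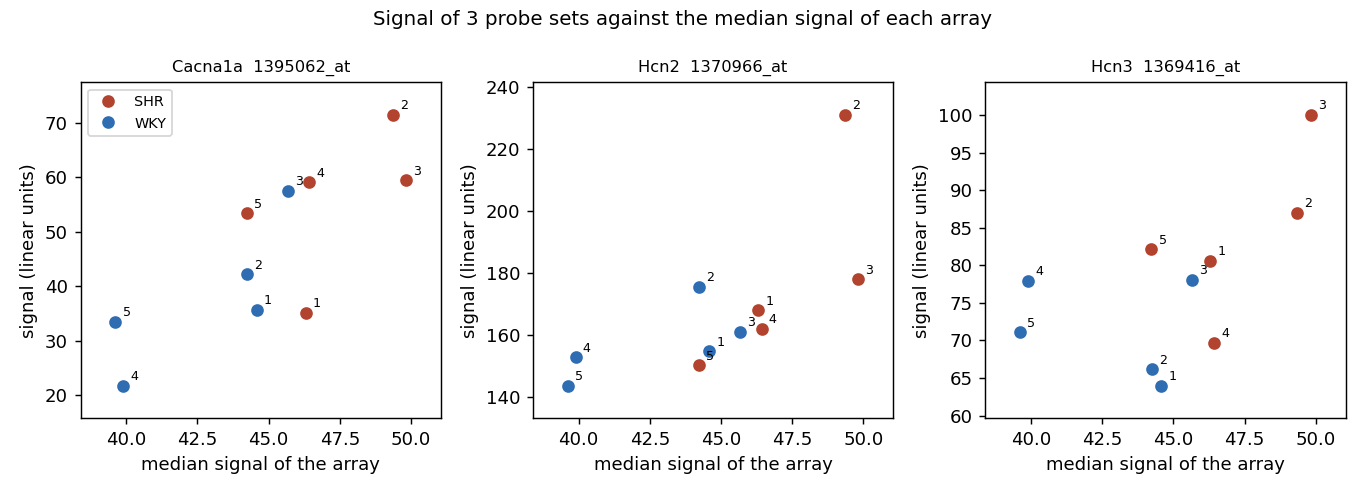
Linear signal of Cacna1a 1395062_at, Hcn2 and Hcn3 (vertical axes, not starting at 0) against the median signal of the array (horizontal axes), 1 point for each of the 10 arrays, SHR red and WKY blue, numbered by array. For Cacna1a and Hcn2 the arrays with a high median, such as SHR 2, also have a high signal; for Hcn3 the relation within a strain is weak (r = 0.18 after centring).

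The remaining 8 probe sets fell below the filter and were given no test in the reported fit. They include the only probe sets of Cacna1g and Cacnb4, so for these genes the arrays give no usable comparison, and a dim probe set need not mean an absent transcript. Cacna1g, the T-type pore Cav3.1, had 6.71, 9.03, 37.0, 5.73 and 3.75 on SHR 1 to SHR 5 and 14.0, 20.0, 15.0, 6.75 and 5.88 on WKY 1 to WKY 5, so the SHR mean of 12.4 rests on SHR 3, the 1 array at or above the 40th percentile. Cacnb4, the beta subunit mutated in the lethargic mouse, had 21.4 ± 6.19 in SHR and 16.1 ± 3.37 in WKY, below the 40th percentile on every array. In SHR, 4 arrays lay between 23.0 and 26.5, above all WKY arrays (13.1 to 21.4), and SHR 2 lay at 10.6, below them all.

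**Figure D4:**
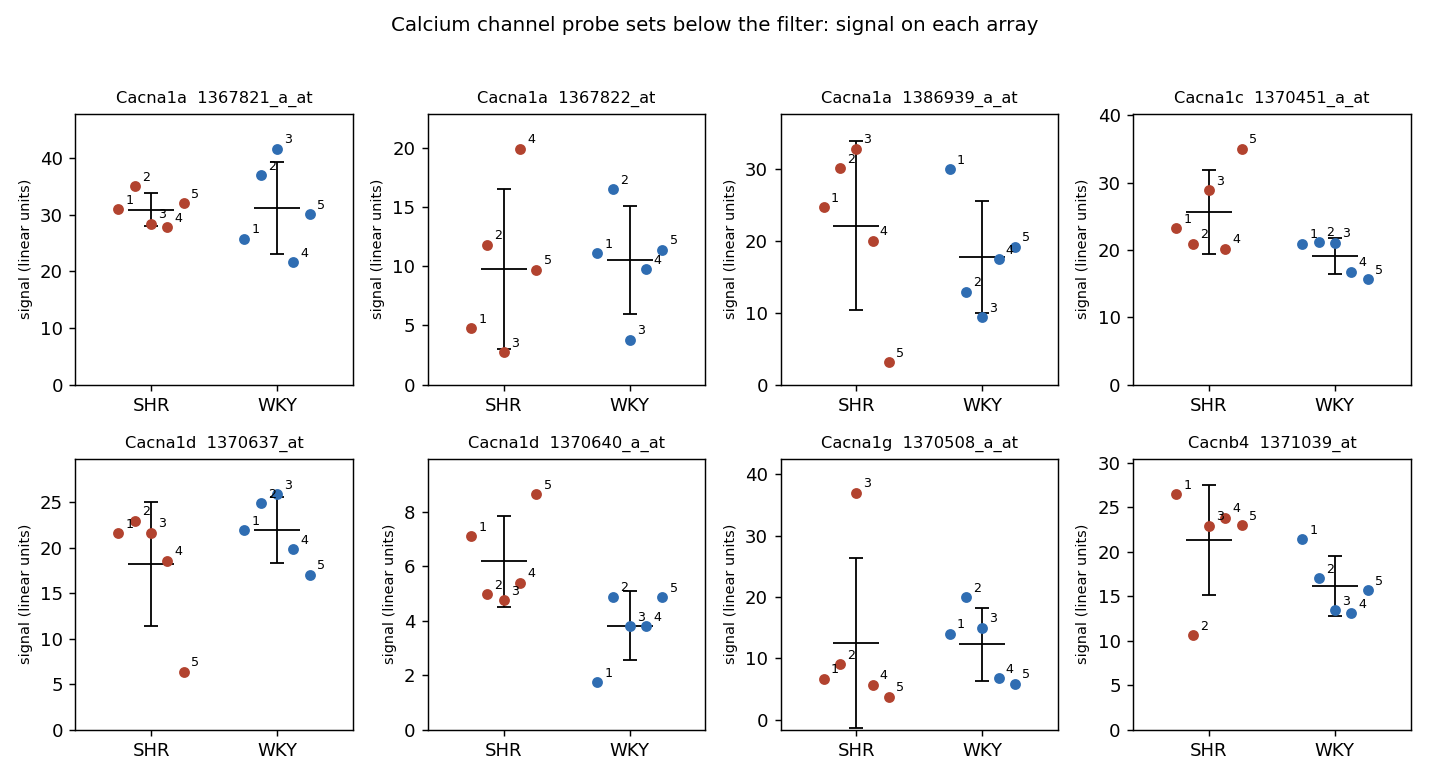
Linear signal on each array for the 8 probe sets below the filter, SHR red and WKY blue, numbered by array, with the mean (long bar) and 1 SD (whiskers, n = 5). Most values lie below 40, the strains overlap in every panel, and single arrays stand apart for Cacna1g (SHR 3), Cacnb4 (SHR 2) and Cacna1d 1370637_at (SHR 5).

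The other dim probe sets belong to genes that also had a tested one. For Cacna1a, 1367821_a_at had 30.8 ± 2.92 in SHR and 31.2 ± 8.13 in WKY, 1386939_a_at had 22.1 ± 11.7 and 17.8 ± 7.83, and 1367822_at had 9.80 ± 6.76 and 10.53 ± 4.57. The first of these reached the 40th percentile on 4 arrays, 1 short of the number required. For Cacna1c, 1370451_a_at had 25.7 ± 6.26 in SHR and 19.1 ± 2.70 in WKY. For Cacna1d, 1370637_at had 18.2 ± 6.82 and 21.9 ± 3.64 and 1370640_a_at had 6.18 ± 1.66 and 3.82 ± 1.27. When all 31042 probe sets were fitted without the filter, 0 of the 17 passed, and the smallest adjusted p among the 8 dim ones was 0.324, for Cacna1d 1370640_a_at.

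Among themselves the tested members did not vary as a block. SHR 2 was the highest of the 10 arrays for 4 probe sets (both of Cacna1a, Cacna1b 1371175_a_at and Hcn2) and the lowest for Cacna2d1. The SD of log2 signal was larger in SHR than in WKY for 7 of the 9, with medians of 0.17 and 0.097; over all probe sets tested it was larger in SHR for 62.2%, with medians of 0.16 and 0.14. With strain means removed, the pairs of members with the highest r over the 10 arrays were Cacna1b 1371175_a_at with Hcn2 (0.79) and Cacna1b 1370444_at with Cacna1d (0.75). The lowest were Cacna1b 1371175_a_at with Cacna2d1 (-0.92) and Cacna1b 1370444_at with Hcn3 (-0.82), so the Cacna1b probe sets kept different company. The probe sets of Cacna1a had r = 0.60 with each other and those of Cacna1b r = -0.54. These correlations are descriptions over 10 arrays that share scaling and signal level.

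Of 10667 other genes on their brightest tested probe set, the pattern most like that of Hcn2 over the 10 arrays was that of Gga3 (r = 0.96; 0.95 with strain means removed), and for Hcn3 it was Nefh, the heavy neurofilament gene (0.93; 0.89). For Cacna1a 1398459_at it was Kctd18 (0.94; 0.93), for Cacna1b Entrep3 (0.88; 0.86), for Cacna1c Paqr7 (0.91; 0.90), for Cacna1d Mapk11 (0.97; 0.97) and for Cacna2d1 Rmi1 (0.91; 0.91). None of these 7 genes passed the strain test; their adjusted p in limma ran from 0.108 for Nefh to 0.973 for Rmi1. Such values were common: 95.4% of the 10668 genes had a best match at or above the lowest of these, r = 0.88.

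Of 21 further calcium channel and HCN genes, 18 were analysed here and 8 had tested probe sets, 12 in all, of which 0 passed. An unadjusted limma p below 0.05 was reached by 5 of the 12, against 21.0% of all probe sets tested, and 2 of the 12 had no overlap between strains, against 6.13%; 7 differences were above 0 and 5 below, with a median of 0.068. Hcn4 was dim (2.17 ± 0.682 in SHR, 1.77 ± 0.393 in WKY). Cacna2d3, a close relative of Cacna2d1, had 135, 137, 137, 135 and 133 on SHR 1 to SHR 5 against 115, 114, 114, 118 and 125 on WKY 1 to WKY 5. Its strains did not overlap, yet the log2 difference of 0.18 ± 0.068 did not pass the limma test (adjusted p = 0.133). The T-type pore gene Cacna1h also had SHR above WKY on every array on 1368398_at (36.9 ± 2.50 and 28.1 ± 3.78; 0.26 ± 0.12; adjusted p = 0.219). On the brighter probe set of Cacna1h, 1379197_at, the strains overlapped (41.2 ± 17.6 and 30.5 ± 3.63; 0.25 ± 0.17; limma adjusted p = 0.416). Cacng3, of the gamma family that also serves AMPA receptors, had the largest negative difference of this list, -0.34 ± 0.11 (adjusted p = 0.106), and passed in 2 of the 22 alternative fits. For Cacnb1 the probe sets had 0.33 ± 0.13 and -0.053 ± 0.13.

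**Figure D5:**
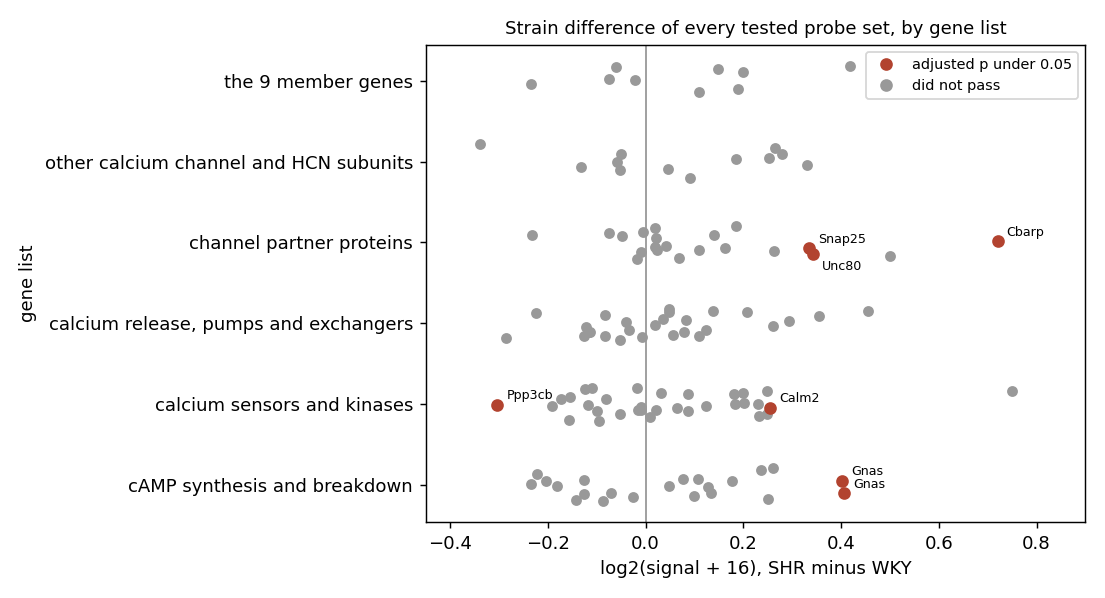
Log2 difference of SHR minus WKY for every tested probe set of the 9 member genes and of the related gene lists; red points passed the limma test and carry their gene's name, grey points did not. No red point lies in the 2 rows of channel subunits.

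Among proteins that act on or beside these channels, of 21 tested probe sets of 14 partner genes, 3 were higher in SHR and 0 lower, against 2.06% and 2.20% of all probe sets tested; the list's median was 0.042. Of the 3, that of Cbarp reached the filter through the 5 SHR arrays alone, so it could be counted only as higher. The call of Snap25 ended in 14 of 22 alternative fits. Unc80, a subunit of the complex of the sodium leak channel Nalcn, had 411, 462, 422, 439 and 440 on SHR 1 to SHR 5 and 358, 335, 311, 318 and 379.5 on WKY 1 to WKY 5. All SHR arrays lay above all WKY arrays (log2 difference 0.34 ± 0.065; limma adjusted p = 0.0055), and the call was lost only with the median-signal covariate (0.37 ± 0.086; adjusted p = 0.0509). Nalcn itself had 537 ± 23.9 and 528 ± 17.3 (0.024 ± 0.055; adjusted p = 0.846).

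Cbarp, which encodes a protein that binds calcium channel beta subunits and reduces calcium current, was higher on the dim probe set 1395401_at (47.3 ± 14.9 in SHR, 22.1 ± 6.17 in WKY; log2 difference 0.72 ± 0.17; limma adjusted p = 0.0187). That probe set reached the filter through the 5 SHR arrays alone, so it could be counted only by being brighter in SHR, and the call ended in 3 of 21 alternative fits: without WKY 5 (0.65 ± 0.17; adjusted p = 0.0593), without both SHR 2 and SHR 3 (adjusted p = 0.0916) and with the median-signal covariate (0.48 ± 0.21; adjusted p = 0.425). The brightest probe set of Cbarp had 1158 ± 31.4 and 1125 ± 42.9 (0.042 ± 0.051, limma adjusted p = 0.679). Its strain difference minus that of 1395401_at was -0.68 ± 0.17 (limma adjusted p = 0.0365 among the pairs). As 1395401_at entered the pairs through its SHR signals alone, this pair test is not independent of that selection. The other tested probe set, 1378897_at, had 44.3 ± 13.1 and 28.0 ± 13.1 (0.50 ± 0.22, limma adjusted p = 0.212). Its pair with the brightest did not pass (limma adjusted p = 0.327). Snap25, which stands among the neuronal markers too and encodes the SNARE protein that binds N- and P/Q-type channels, was higher by 0.33 ± 0.091 (adjusted p = 0.048). The call ended in 14 of 22 alternative fits. Leaving out both SHR 2 and SHR 3 gave 0.23 (adjusted p = 0.225), quantile normalization 0.13 (0.141) and the median-signal covariate 0.21 (0.584), and the call also ended with no filter (0.112), without the trend (0.108), with array weights (0.0705) and with an offset of 1 (0.0506). It was lost in 7 of the 10 leave-one-out fits: without SHR 2 (adjusted p = 0.104), SHR 3 (0.094), SHR 4 (0.0828), WKY 1 (0.101), WKY 2 (0.0672), WKY 4 (0.137) or WKY 5 (0.0663).

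The lists for calcium handling and for cAMP, the ligand that tunes HCN channels, were read from the same fit. Of 27 tested probe sets for calcium release, pumps and exchangers, 0 passed, against 4.26% of all probe sets tested (median difference 0.035). An unadjusted p below 0.05 in limma was reached by 6 of the 27, against 21.0%. Of 33 tested probe sets for calcium sensors and kinases, 1 was higher and 1 lower, against 2.06% and 2.20% of all probe sets tested (median 0.0092). Calm2, a calmodulin gene, was higher by 0.26 ± 0.068 (limma adjusted p = 0.0442), a call lost in 15 of 22 alternative fits, 8 of them leave-one-out fits, namely without each array but SHR 1 and WKY 3 (the highest adjusted p was 0.133, without WKY 4), and that fell to 0.053 with quantile normalization. Ppp3cb, a catalytic subunit of calcineurin, was lower by -0.30 ± 0.075 on 1 probe set (adjusted p = 0.0276) and had -0.016 and -0.0098 on its brighter ones. That call ended in 8 of 22 alternative fits: without SHR 2 (adjusted p = 0.0725), SHR 3 (0.0552), WKY 2 (0.0588), WKY 4 (0.0755) or WKY 5 (0.0905), without both SHR 2 and SHR 3 (0.144), without the trend (0.0559) and with the median-signal covariate, where the difference was -0.14 (0.598).

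Of 22 tested probe sets for cAMP synthesis and breakdown, 2 were higher and 0 lower, against 2.06% and 2.20% of all probe sets tested (median 0.062). Both belong to Gnas, the stimulatory G protein subunit that activates adenylyl cyclase. On 1387906_a_at the signals were 2486, 2494, 2714, 2553 and 2747 on SHR 1 to SHR 5 and 1745, 1731, 1998, 2122 and 2262 on WKY 1 to WKY 5, with no overlap. The log2 difference was 0.40 ± 0.073 (limma adjusted p = 0.00371), and it passed in each of the 22 alternative fits (adjusted p from 0.00138 to 0.0231). On the brighter 1369897_s_at it was 0.41 ± 0.095 (adjusted p = 0.0202), but -0.023 with quantile normalization and 0.24 with the median-signal covariate (adjusted p = 0.498). The call also ended without SHR 2 (0.0589), WKY 1 (0.0514), WKY 4 (0.0701) or both SHR 2 and SHR 3 (0.132), with no filter (0.0763) and without the trend (0.0612).

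The tissue label was checked against marker genes. Of 10 markers of the NTS and dorsal vagal complex, 7 were analysed here and all 7 were tested, among them Th (416 ± 19.1 in SHR, 477 ± 67.8 in WKY), Dbh (272 ± 28.7 and 334 ± 51.1) and the glutamate transporter gene Slc17a6 (998 ± 30.9 and 1056 ± 36.7). The summed signal of the 7 was 3244 to 3536 among SHR arrays and 3547 to 4421 among WKY arrays, without overlap but nearly touching (SHR 4 and WKY 3). None of the 7 separated the strains by itself. Of their log2 differences 6 were below 0 and 1 was above, that of Phox2a (52.6 ± 8.76 and 52.1 ± 8.86). Only Prlh passed the test (538 ± 34.4 and 735 ± 165). The summed signal of 8 neuronal markers was 11697 to 12868 and 10449 to 12003. Of 9 cerebellar markers, in a tissue rich in Cacna1a and Cacna1g that lies close to the NTS, 6 were summed (1100 to 1206 in SHR, 1094 to 1310 in WKY). Calb1 made up most of that sum (746 ± 33.7 and 814 ± 92.3). Gabra6 of granule cells was below the filter (26.5 and 17.8 on its brighter probe set). Of 7 tested cerebellar probe sets 0 passed, with 4 log2 differences above 0 and 3 below. Pcp2 of Purkinje cells had 42.8 ± 8.47 and 31.7 ± 10.6, while Car8 had 59.3 ± 9.69 and 73.9 ± 6.35. The ratio of the 3' to the 5' control probe set, a sign of RNA length, differed between the control genes. For hexokinase it was 2.22 to 20.2 among SHR arrays and 9.17 to 21.3 among WKY arrays. Among SHR arrays it was highest on SHR 2 (20.2) and SHR 3 (17.7), those of highest median signal. The highest of all was on WKY 5 (21.3), the array of lowest median signal. Over all 10 arrays the ratio was 1.07 to 1.34 for GAPDH and 2.26 to 3.92 for beta-actin. Marker genes with a probe set that passed were, besides Snap25, the NTS gene Prlh (-0.42; limma adjusted p = 0.0379), the oligodendrocyte gene Mobp (-1.41 and -0.34 on 2 of its 3 probe sets; 9.68e-09 and 0.0126), the endothelial gene Vwf (-0.52; 0.0141), the choroid plexus gene Enpp2 (0.28; 0.0306) and the muscle actin gene Acta1 (0.34; 0.0417). In the oligodendrocyte list that holds Mobp, 7 differences were below 0 and 3 above, those of Mbp (0.093 to 0.32, none past the threshold). The summed signal of 5 markers of that list was 6364 to 8168 among SHR arrays and 6034 to 8074 among WKY arrays, which overlap. Summed over 4 choroid plexus markers the signal was 926 to 1066 among SHR arrays and 697 to 956 among WKY arrays, which overlap. Enpp2 made up most of that sum (748 ± 50.6 and 612 ± 62.3). All 4 log2 differences were above 0, that of Ttr by 0.068 (58.1 ± 20.4 and 67.0 ± 66.0, limma adjusted p = 0.930). Over 2 of 6 skeletal and cardiac muscle markers it was 156 to 202 and 133 to 149, which do not overlap. Of these 2, Acta1 was higher in SHR (134 ± 18.9 and 102 ± 5.51). Myh7 went the other way without passing (36.9 ± 4.10 and 40.6 ± 5.14, log2 difference -0.097, limma adjusted p = 0.677). The muscle markers Ckm (21.6 and 14.9), Myl2 and Tnnt3 were below the filter on all their probe sets. In the smooth muscle and endothelium list that holds Vwf, 3 differences were above 0 and 3 below. There Pecam1 had 43.6 ± 7.38 in SHR and 29.1 ± 3.59 in WKY, without overlap (0.40, limma adjusted p = 0.0852). Cldn5 had -0.0079 (limma adjusted p = 0.959). The summed signal of 6 markers of that list was 656 to 730 and 621 to 727, which overlap. The part of these differences in the values of the channel genes was not tested.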

How the data were processed

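NTS total RNA was amplified (MessageAmp II) for 1-colour arrays, per the labels. Per the submitters' processing notes the software was GCOS 1.2, and the deposited table gives 1 linear signal intensity per probe set and array. How probes were summarised, the background removed and presence called is not given in the sources used. The authors had scaled the arrays: in the deposited intensity values, the mean after trimming 2% at each end is 100.0 on each. The number of arrays limits the precision.

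The title of each sample gave its strain. The 57 control probe sets were left out, and log2(signal + 16) was used with no further normalization, which understates the change of low signals. A probe set was tested if at least 5 of 10 arrays reached that array's 40th percentile. Strain was fitted in limma 3.58.1 (R 4.3.3) with an intensity trend, over all 18846 such probe sets; the model was tested on simulated data. For genes with several tested probe sets, the log2 ratio of the brightest to each other one was fitted in the same way without the trend. Symbols follow the platform annotation, updated by Entrez identifier to the RefSeq table of GRCr8: 20826 probe sets had 1 symbol, 436 several and 9780 none. All 17 member probe sets carry the member's symbol in the annotation as it stands. No genome position is printed, as the sources used do not name a build for the design of the array.

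The members and gene lists were chosen with earlier results of these data known. Named are all members, list genes past the threshold, some of the related subunits (Cacna2d3, Cacna1h, Cacng3, Cacnb1 and Hcn4 in the report, chosen after their values were seen), and for each member the first of the 2 genes most correlated with it. Nalcn and the marker genes given for their levels were named after their values were seen, as were Camk2g and Atp2b4 in the closing section. No array was a copy of another: at most 2 values were identical between 2 arrays. Alternatives were 2 normalizations, offsets of 1 and 64, no filter and a 60th percentile filter, other variance models, array weights, a block for the replicate number, the array median as a covariate, and leaving out arrays.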

Additional observations from a re-analysis of the deposited data

Results flagged for a closer look

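In 34 sets of 5 values (17 probe sets in 2 strains), 3 had 1 array set apart from the other 4 by more than Dixon's 95% critical value (0.71 of the range); chance gives about 1 in 20. All 3 are probe sets below the filter. Cacna1g 1370508_a_at stood at 37.0 on SHR 3, where the other SHR arrays had 6.31 ± 2.19 (SD, n = 4) and the WKY mean was 12.3. Cacnb4 1371039_at stood at 10.6 on SHR 2, where the other SHR arrays had 24.1 ± 1.68 (n = 4) and the WKY mean was 16.1. Cacna1d 1370637_at stood at 6.38 on SHR 5, where the other SHR arrays had 21.2 ± 1.86 (n = 4) and the WKY mean was 21.9. At such signals the background is unknown, and the cause was not tested.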

How the results depend on the processing

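No member probe set passed in any of the 22 alternative fits (lowest adjusted p 0.0691), and 185 of 194 values of the tested members kept their direction. The 9 reversals, all of differences that had not passed, were Cacna2d1 with quantile normalization (0.039), array weights (0.013), without both SHR 2 and SHR 3 (0.080), and without SHR 2 (0.029) or SHR 3 (0.0044; -0.054 to 0.029 over all arrays left out in turn); and, with the median-signal covariate, Cacna2d1 (0.045), Cacna1a 1398459_at (-0.024), Cacna1c (0.00062) and Hcn2 (-0.036). Among related genes, Cacnb2 1370178_at (-0.0017) and Cacng2 1368759_at (-0.090) turned with the covariate, Gnas 1369897_s_at, which had passed, with quantile normalization (-0.023), Cacna1h 1379197_at (-0.018) and Cacng2 1368759_at (-0.041) without both SHR 2 and SHR 3, Cacnb1 1387428_at without SHR 4 (0.019) or WKY 4 (0.0048; range -0.17 to 0.019), Cacnb2 1374717_at without SHR 4 (range -0.090 to 0.0051) and Cacna1i without SHR 5 (range -0.11 to 0.040). The count of all probe sets that differed, 803, was 206 with the covariate, 512 without both SHR 2 and SHR 3, and 480 to 976 with 1 array left out. The count of differing pairs of probe sets, 129, was 76 with the 60th percentile filter and 56 to 116 with 1 array left out. Members without overlap were 0 to 1 with 1 array left out (Hcn3, without SHR 4). The labels give no pairing or batch beyond a replicate number that arrays of the strains share. Deviations of same-numbered arrays correlated at 0.038 to 0.28, all above 0, and 6 of 10 arrays correlated best with their own number. With the replicate block 1214 probe sets and 0 members passed, against 803 probe sets in the reported fit, which has no block. Whether the number marks a shared batch was not tested. Of 414 values of related probe sets, 48 kept their direction but lost their call, and 2 gained one. The reversed value of Gnas 1369897_s_at with quantile normalization lost its call too (limma adjusted p = 0.779). Dim signals limit Cacna1g, Cacnb4 and 6 further probe sets to values without a test in the reported fit. The cause of these changes was not tested.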

Other observations

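Among the calcium handling genes, 2 differences were large and did not pass. The kinase gene Camk2g had 64.5 ± 47.6 in SHR and 26.3 ± 10.3 in WKY on 1381936_at (SD, n = 5; log2 difference 0.75 ± 0.32; limma adjusted p = 0.188). That SHR mean rests largely on SHR 2 (135.1), SHR 1 (28.9) and SHR 5 (15.1) lay within the WKY range of 13.9 to 36.8, and the brighter probe set 1369993_at had 287 and 288 (0.0092; adjusted p = 0.974). The plasma membrane calcium pump gene Atp2b4 had 47.0 ± 8.08 and 30.8 ± 11.9 on 1370602_at (0.45 ± 0.16; adjusted p = 0.121).

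In the RefSeq table of GRCr8, Cbarp and Hcn2 lie on chromosome 7 with 26 protein-coding genes between them. The other member genes lie on chromosomes 2 (Hcn3), 3 (Cacna1b and Cacnb4), 4 (Cacna1c and Cacna2d1), 10 (Cacna1g), 16 (Cacna1d) and 19 (Cacna1a).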
